A study of Homo sapiens with 5 samples.

Results

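The 8 cadherin genes, CDH1, CDH2, CDH3, CDH4, CDH5, CDH6, CDH11 and CDH13, were examined in the TEAD4 ChIP-seq peak list of LX-2 cells. A peak was assigned to a gene when its summit lay in the gene body or within 100 kb of any annotated transcription start site (TSS) of that gene. This gave 42 of the 21113 peaks of the list (0.199%), and each of the 8 genes had at least 2. The genes were chosen by name with earlier results of these data in view, and the peaks were selected on their position in the same list. The number of peaks at a gene thus depends on the rule and on the choice of genes, and all values below are a description with no test. Shares and medians of the set mostly stand beside the same measure over all protein-coding genes or all peaks.

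LX-2 is an immortalised human hepatic stellate cell (HSC) line with a myofibroblastic (MF) phenotype. All 5 samples of the series were formaldehyde-fixed LX-2 chromatin from cells that had received the solvent DMSO and no other agent. Of these, 3 were immunoprecipitated with an antibody against TEAD4, and 2 were input chromatin, of which 1 sample served replicates 1 and 2 and the other replicate 3. The authors kept replicates 1 and 3, and the deposited list gives 1 set of peaks for both, so there is no value per sample, no spread between replicates and no other condition. The study concerned protein O-GlcNAcylation in MFs, and the TEAD4 peaks served there to characterise regulatory regions that respond to inhibition of the enzyme OGT. No such treatment is among these samples. The list holds no expression values, so which cadherins these cells express, and the stellate cell identity itself, could not be checked from it. The sequencing depth behind the peaks is unknown.

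Cadherins are calcium-dependent adhesion proteins that join neighbouring cells. Type I classical cadherins (CDH1 to CDH4) and type II cadherins (CDH5, CDH6 and CDH11) carry a cytoplasmic tail that binds catenins, which in turn connect the junction to the actin cytoskeleton. CDH13 (T-cadherin) is an exception among the 8, since it has no such tail and is held in the membrane by a lipid anchor, so it is not a classical cadherin in the strict sense. TEAD4 is a DNA-binding factor of the TEA domain family that uses YAP1 as a cofactor, and cell junctions are among the inputs that restrain YAP1.

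TEAD factors recognise the letters ACATTCC on either strand (read as GGAATGT on the other strand). To show what lay under the summits, the sequence of the strongest peak of each gene is given 5′ to 3′ on the plus strand of hg38, cut to the surroundings of the summit and of the matches. Capitals mark ACATTCC and 2 related forms, of which GCATTCC reads as GGAATGC on the other strand while GAATTCC reads as GGAATTC there. They also mark the AP-1 motif TGACTCA, whose reverse complement is TGAGTCA. Both related forms were added after the sequences had been seen. Of these 8 peaks, 7 held a capitalised TEAD form, 2 held ACATTCC itself (CDH11 and CDH13) and 2 held the AP-1 motif (CDH1 and CDH13). Over all peaks the shares were 47.0%, 23.0% and 25.4%. These 8 peaks were picked as the strongest of their genes, and strong peaks of the list held a TEAD form more often, as given further on. The count of 7 also rests on the forms added afterwards.
CDH1, chr16:68823562-68823671: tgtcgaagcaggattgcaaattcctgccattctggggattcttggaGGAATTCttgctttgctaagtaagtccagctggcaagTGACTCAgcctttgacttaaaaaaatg
CDH2, chr18:28204360-28204440: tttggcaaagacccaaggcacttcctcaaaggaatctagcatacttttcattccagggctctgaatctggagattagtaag
CDH3, chr16:68707778-68707904: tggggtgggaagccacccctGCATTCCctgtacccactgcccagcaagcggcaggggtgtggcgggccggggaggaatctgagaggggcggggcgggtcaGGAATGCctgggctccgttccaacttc
CDH4, chr20:61186164-61186239: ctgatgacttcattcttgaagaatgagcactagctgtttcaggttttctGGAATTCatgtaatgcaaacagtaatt
CDH5, chr16:66382409-66382473: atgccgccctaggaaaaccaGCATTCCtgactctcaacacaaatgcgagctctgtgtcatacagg
CDH6, chr5:31362253-31362312: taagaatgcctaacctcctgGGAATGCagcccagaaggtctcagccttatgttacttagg
CDH11, chr16:65178338-65178395: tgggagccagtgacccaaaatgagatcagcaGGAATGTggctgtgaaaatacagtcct
CDH13, chr16:83744577-83744646: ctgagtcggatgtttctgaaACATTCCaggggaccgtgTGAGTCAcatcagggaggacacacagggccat

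TEAD4 peaks at the cadherin genes had a median signal value above that of the list, and most lay in introns of the genes, whose whole bodies the rule takes in. The signal value, the peak caller's measure of enrichment in the combined list, had a median of 98.1 over the 42 peaks and of 68.1 over all peaks, whose quartiles were 46.1 and 114. It ran from 28.1 to 824.1 at the cadherin genes, against a highest value of 1074 in the list. Of the 42 peaks, 31 (73.8%) were above the median of the list and 11 were below it. The score of the list, which rises with the agreement between the replicates (scaled irreproducible discovery rate, IDR), was at its highest value of 1000 in 38 of the 42 peaks and in 76.1% of all peaks. The other 4 had scores from 841 upwards, and all 42 had the highest −log10 q-value of the list, 4.76, as did 94.5% of all peaks. A peak by the same rule was found for 72.0% of the 20007 protein-coding genes, so having a peak did not set the 8 cadherins apart.

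**Figure D1:**
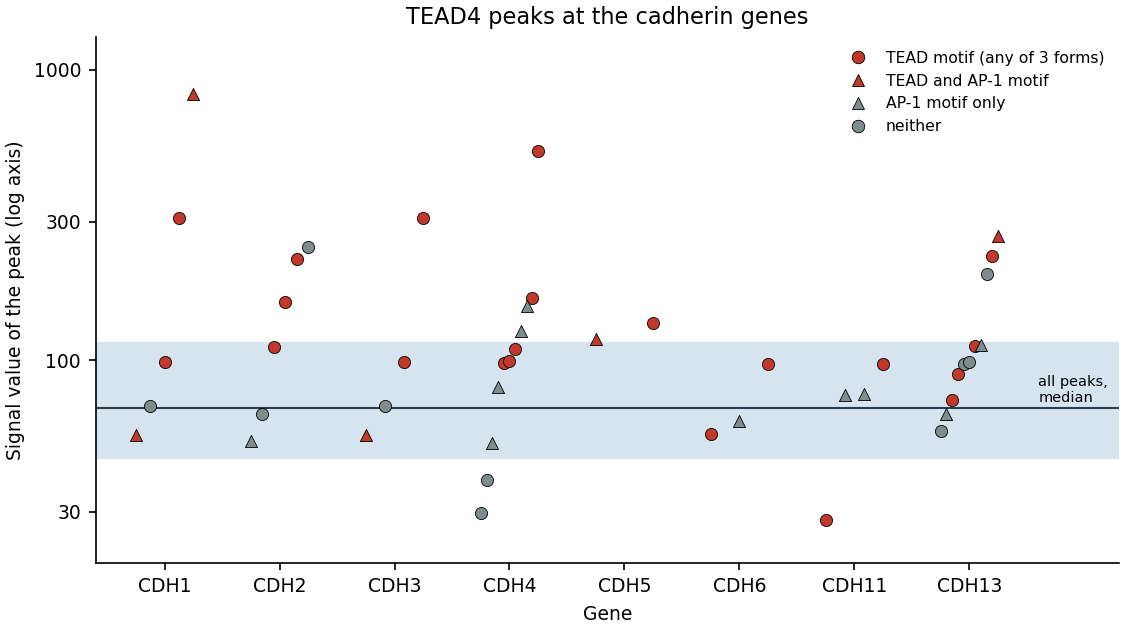
Signal value of each TEAD4 peak (log axis, no unit) at the 8 cadherin genes, 1 point per peak, coloured by TEAD forms and shaped by the AP-1 motif within 100 bp of the summit; the line and band are the median (68.1) and quartiles of all peaks. Of the 42 peaks, 31 lay above the line, and the 4 peaks shared by CDH1 and CDH3 are drawn at both genes.

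The 8 genes differ in length, and a longer gene has more room for peaks under this rule. The cadherins had medians of 4.5 peaks, 338 kb of searched length and 12.6 peaks per Mb, each taken separately over the genes. Over all protein-coding genes these medians were 2 peaks, 211 kb and 5.17 peaks per Mb. CDH4 and CDH13 had the most peaks (11 each), and CDH5 had the fewest (2). Among genes of like searched length, CDH1 (5 peaks), CDH4 and CDH13 were above the upper quartile, which was 4, 7.25 and 9 peaks in their length classes. CDH2 (6 peaks) and CDH3 (4 peaks) were at the upper quartile of theirs, CDH11 (4 peaks) was between a median of 3 and an upper quartile of 5, and CDH5 and CDH6 were at the median of 2 and 3 peaks. Per length, the type I cadherins CDH1, CDH2, CDH3 and CDH4 had 17.5, 14.6, 15.4 and 14.0 peaks per Mb. The other 4 genes had 8.74 (CDH5), 9.30 (CDH6), 11.3 (CDH11) and 8.64 (CDH13) peaks per Mb. CDH1 and CDH3 share 4 peaks, and the wider family given further on did not follow this order of types.

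**Figure D2:**
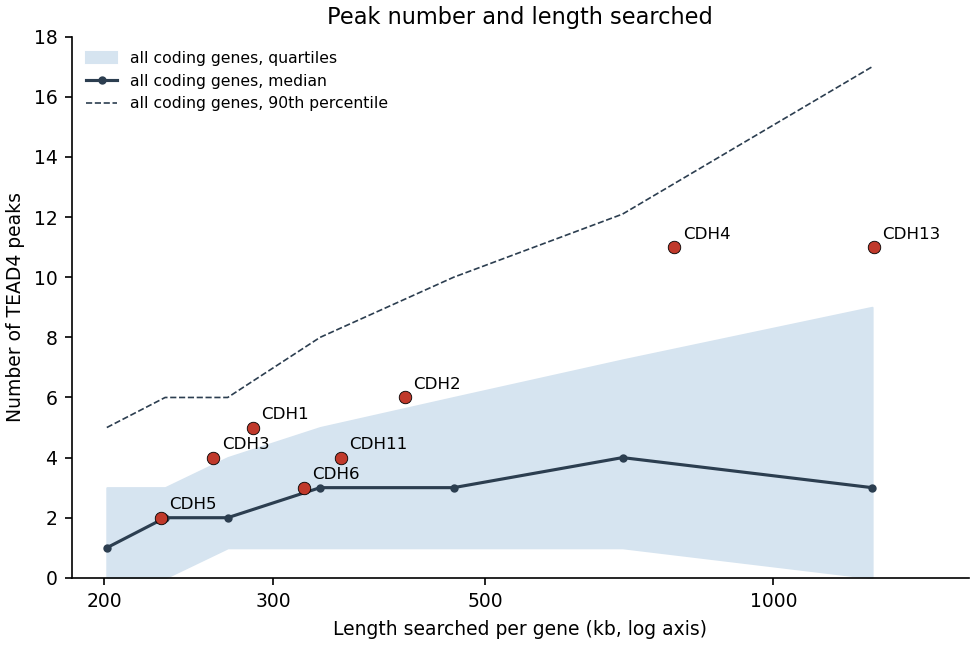
Number of TEAD4 peaks against the length searched per gene (kb, log axis) for the 8 cadherin genes (red points), with the median, quartiles and 90th percentile of all protein-coding genes in 7 length classes. No cadherin gene was above the 90th percentile of genes of like length, and CDH5 and CDH6 were on the median line.

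Most summits lay over 10 kb from the start sites of the gene, at the cadherins as over all genes. Counting a peak once for each gene it was assigned to gives 46 pairs at the cadherins and 47025 over all protein-coding genes. A TSS of the gene was within 1 kb of the summit in 1 of the 46 pairs (2.17%, against 6.35%), within 2.5 kb in 3 (6.52%, against 9.44%), within 10 kb in 9 (19.6%, against 19.6%) and within 50 kb in 28 (60.9%, against 57.2%). The median distance was 40171 bp at the cadherins and 41734 bp over all pairs. CDH1 and CDH11, 2 of the 8 genes, had a summit within 2.5 kb of any TSS, against 16.7% of all protein-coding genes. Within 10 kb of the canonical TSS (that of the annotation's main transcript) there was a summit for CDH11 and CDH13, again 2 of 8, against 19.8%. The summit lay in the body of the gene in 33 of the 46 pairs (71.7%), against 25.5% of all pairs, while 53.7% of all peaks lay in the body of some protein-coding gene. A long gene body takes up more of the searched stretch, such as 1174 of 1274 kb at CDH13 and 688 of 788 kb at CDH4. These 2 genes held 11 and 8 of the 33, so the share largely follows from gene length and the rule. It is not read as a trait of the cadherins. Of the 33, 30 were in an intron of the canonical transcript, 1 was in a coding exon and 2 were in parts of the gene that only other transcripts cover. The peaks were CpG-poor, with a median ratio of observed to expected CpG of 0.213 within 100 bp of the summit (0.193 over all peaks), and 1 of 42 (2.38%) had a ratio above 0.6, against 8.63% of all peaks. Their G and C content was 45.0% and that of all peaks 44.8% (medians).

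**Figure D3:**
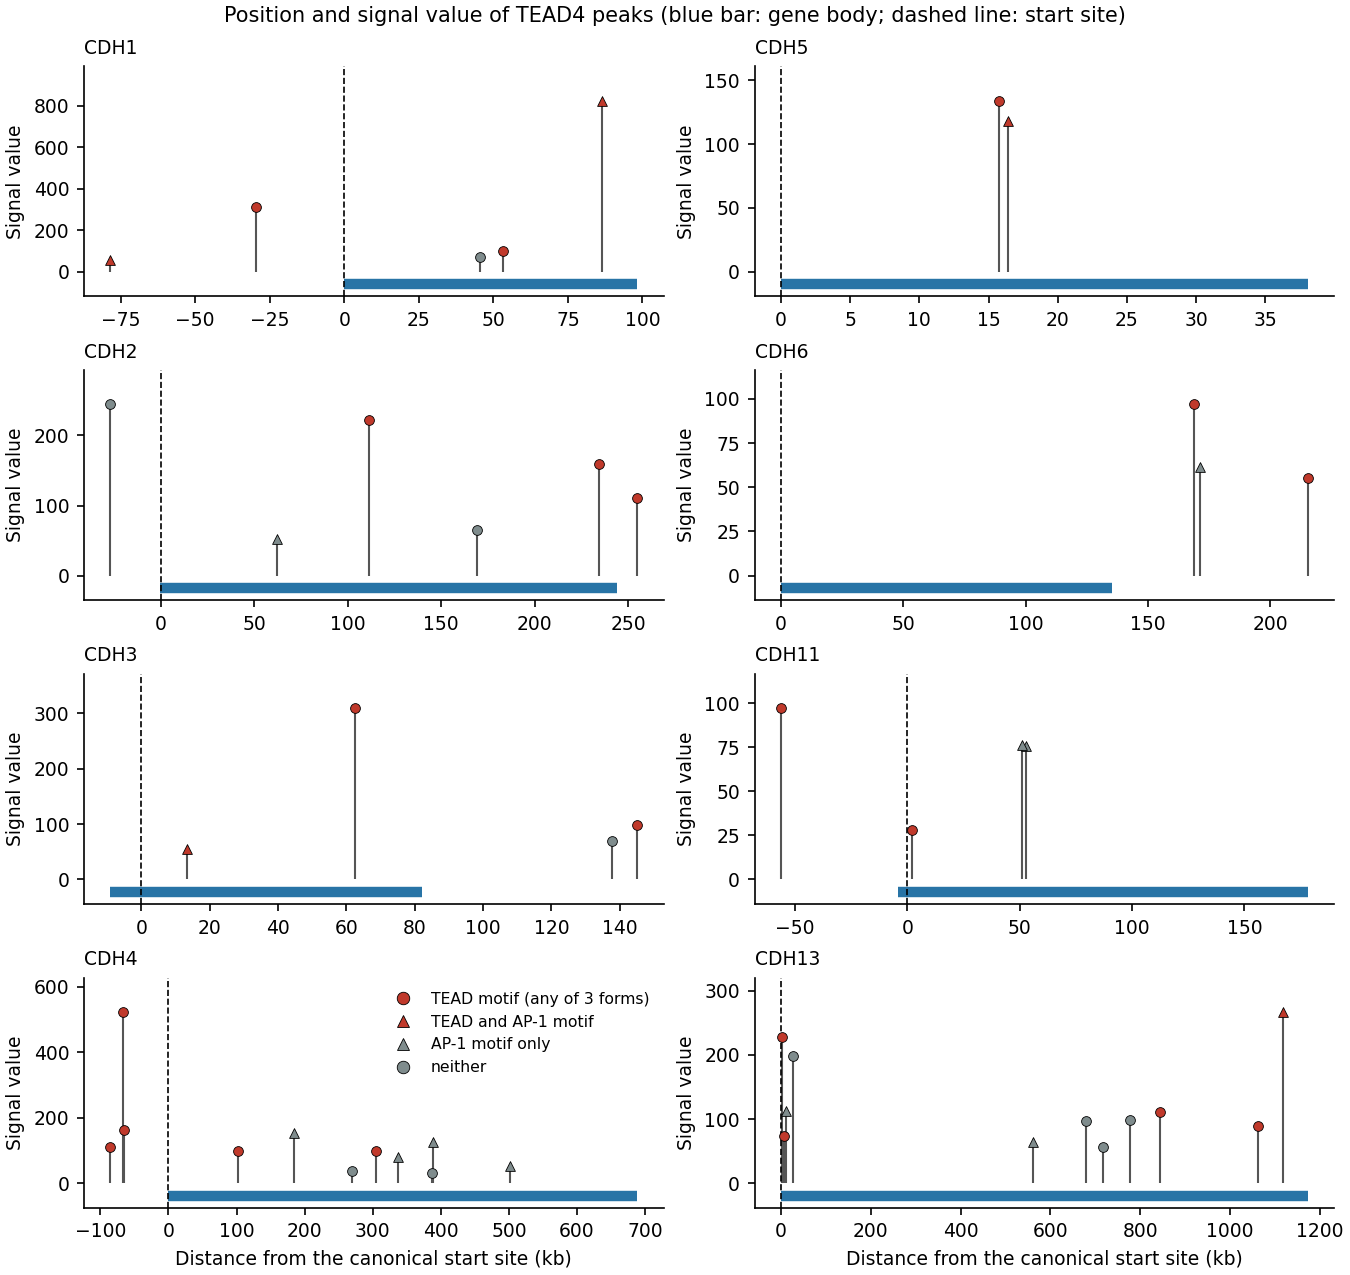
Signal value of each TEAD4 peak (no unit) against the distance of its summit from the canonical TSS (kb, in the direction of the gene, negative upstream), 1 panel per gene with its own scales, symbols as in the plot by gene. The CDH6 peaks all lay beyond the gene's end, the CDH5 peaks side by side in the gene, and 4 of the CDH13 peaks at its start.

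CDH1 encodes E-cadherin, the adhesion protein of epithelial cells including hepatocytes. The gene (ENSG00000039068, chromosome 16, 68737292 to 68835537, plus strand, hg38) had 5 peaks, with signal values of 54.94, 309.5, 69.47, 98.25 and 824.1 in the order of the chromosome. The last of these, at 68823310 to 68823825, was the strongest at any of the 8 genes and ranked 5 of 21113. Its summit lay in coding exon 13 of the canonical transcript, 86290 bp downstream of that transcript's TSS. It was 337 bp from the TSS of a shorter transcript annotated with a retained intron, so the promoter count for CDH1 above rests on an alternative start in the distal part of the gene. In the sequence shown above, GAATTCC (as GGAATTC) was centred 29 bp and the AP-1 motif 66 bp from this summit. No summit was closer to the canonical CDH1 TSS than 29439 bp. The pair at 69.47 and 98.25 lay in intron 2, and the pair at 54.94 and 309.5 lay upstream in CDH3. The peaks of 69.47, 98.25 and 824.1 were also in the window of the coding gene TANGO6, and that of 54.94 in the window of ZFP90.

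CDH3 encodes P-cadherin, which is found in placenta and in basal layers of epithelia, and lies next to CDH1 in the same direction (ENSG00000062038, chromosome 16, 68636189 to 68727468). Its 4 peaks were the 4 weaker peaks of CDH1, so these are not separate observations, and position alone does not say which gene a shared peak belongs to. By the nearest coding TSS, 2 of them went to CDH3 and 2 to CDH1. The peak of 54.94 was in intron 2 of CDH3, at 13504 bp from the canonical TSS. The peak of 309.5 (68707668 to 68708070, rank 679) was in the body of CDH3 but outside its canonical transcript, at 62543 bp, and 11709 bp from the TSS of another CDH3 transcript. It had 64.2% G and C within 100 bp of the summit, the highest of the 42, and its sequence above holds GCATTCC on both strands, centred 52 bp before and 28 bp after the summit. The strong exon peak of CDH1 was the next one outside the CDH3 window, 127438 bp from a CDH3 TSS.

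CDH2 encodes N-cadherin, the classical cadherin of neural and mesenchymal cells. The gene (ENSG00000170558, chromosome 18, 27932879 to 28177946, minus strand) had 6 peaks, none of them in the window of another coding gene. Their signal values were 244.4, 52.55, 222.7, 65.13, 159.0 and 111.3 in the direction of the gene. The median of 135.2 was the highest of the 8 genes, and 4 of the 6 peaks were above the median of the list. The strongest (28204237 to 28204549, rank 1242) lay upstream, at -27270 bp from the canonical TSS, and no summit was closer to that TSS. Its sequence above has no capitals, as it held none of the TEAD forms in full, though it held the shorter letters CATTCC. The peak of 222.7 (28065409 to 28065703, rank 1538) was in intron 2, and the weaker peaks of 52.55 and 65.13 were in introns 2 and 5. The peak of 159.0 was near the 3′ end of the gene outside the canonical transcript, and that of 111.3 lay downstream of the gene, both within a lncRNA gene.

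CDH4 encodes R-cadherin, first known from the retina. It is a long gene (ENSG00000179242, chromosome 20, 61252261 to 61940617, plus strand) and its 11 peaks lay in the window of no other coding gene. The signal values ran from 29.65 to 523.3 with a median of 99.27. The strongest peak, at 61185948 to 61186477 (rank 120), lay at -66077 bp from the canonical TSS and overlapped a peak of 163.9 whose summit was at -65877 bp. These 2 summits share nearly the same interval and come from 1 region. A further upstream peak (109.5) was at -85672 bp. The other 8 peaks were in the gene, 7 in intron 2 with values of 97.94, 153.7, 38.49, 99.27, 80.79, 29.65 and 126.0, and 1 in intron 3 with 51.91. No summit was within 10 kb of a CDH4 TSS. The peaks of 38.49 and 29.65 had scores of 884 and 866 and were among the 4 peaks below the highest score. Of the 8 genes, CDH1 and CDH4 had a peak among the 211 strongest of the list (the top 1%), against 2.42% of all protein-coding genes. CDH4 was searched over 788 kb, against a median of 211 kb over all these genes, and the CDH1 peak was also in the TANGO6 window. The share among genes of like searched length was not computed.

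CDH5 encodes VE-cadherin, the adhesion protein of endothelial junctions. The gene (ENSG00000179776, chromosome 16, 66366690 to 66404784, plus strand) is the shortest of the 8 and had 2 peaks, of 134.2 and 118.4. Both were in intron 2, with summits at 15762 and 16388 bp from the canonical TSS and at 3228 and 3854 bp from that of another CDH5 transcript. They also lay in the window of the coding gene BEAN1. The peak of 118.4 held both ACATTCC and the AP-1 motif, at 96 and 4 bp from its summit.

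CDH6 encodes K-cadherin, known from the developing kidney. The gene (ENSG00000113361, chromosome 5, 31193686 to 31329146, plus strand) was the only one of the 8 with no peak in its body. Its 3 peaks, of 96.93, 61.45 and 55.41, lay downstream, and the closest was 46042 bp from a CDH6 TSS and 168606 bp from the canonical one. For all 3 the nearest coding TSS was that of DROSHA, which encodes the nuclear enzyme that starts microRNA processing, and the peak of 55.41 was 458 bp from it. The assignment of these peaks to CDH6 thus rests on the 100 kb rule alone. The highest CDH6 value, 96.93, was the lowest maximum among the 8 genes.

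CDH11 encodes OB-cadherin, a cadherin of mesenchymal cells such as osteoblasts and fibroblasts. The gene (ENSG00000140937, chromosome 16, 64943753 to 65126112, minus strand) had 4 peaks, none in another coding gene's window. The peak of 97.25 lay upstream, at -56295 bp from the canonical TSS. The others were in intron 1, with 28.07 at 2059 bp, 76.39 at 51078 bp and 75.63 at 52693 bp. The summit at 2059 bp was the closest to a canonical TSS among all 42 and also the weakest (rank 19897, score 841). The peak of 76.39 was 1228 bp from the TSS of another CDH11 transcript. Of the 4 values, 3 were above the median of the list, and none was among the 10 strongest of the set.

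CDH13 encodes T-cadherin, a receptor for adiponectin and low-density lipoprotein. It is the longest of the 8 genes (ENSG00000140945, chromosome 16, 82626965 to 83800640, plus strand), and all of its 11 peaks lay in introns. Near the start of intron 1, summits at 2972, 7256, 11572 and 27127 bp from the canonical TSS had signal values of 228.6, 72.90, 112.4 and 197.7. Beyond these 4, no summit followed until 560689 bp, from where 7 peaks were spread over introns 4 to 10 with values of 65.00, 97.02, 56.83, 98.74, 111.6, 89.49 and 267.2. The last and strongest (83744464 to 83744773, rank 1018) lay 89806 bp from the nearest CDH13 TSS, in a stretch where HSBP1 and a lncRNA gene are also annotated. Its nearest coding TSS was that of HSBP1, a gene of the heat shock response, at 25315 bp. HSBP1 also had the nearest coding TSS to the peak of 89.49, at 29651 bp, and both peaks were in the HSBP1 window. Genes with a searched length of at least 500 kb had a median of 3 peaks (649 genes), and 84.7% of them had fewer than the 11 of CDH13 or CDH4.

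The number of peaks depended on the distance limit, with 37 within 50 kb of a TSS or in a gene body and 63 within 250 kb. Just inside 100 kb were a CDH3 peak at 94259 bp (98.25, in CDH1) and a CDH6 peak at 92843 bp (55.41). Just outside were summits at 108562 bp from CDH11 (99.67), 116475 bp from CDH5 (84.36) and 121877 bp from CDH2 (56.66). The nearest coding TSS belonged to a cadherin gene of the set for 37 of the 42 peaks, and 31 lay in no other coding gene's window. The neighbouring summit was a median of 33057 bp away, against 11589 bp over all peaks, and 6 of the 42 had a neighbour within 1 kb, against 20.1% of all peaks.

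Within 1 Mb of a CDH2 TSS the list held 14 peaks, 8 more than by the 100 kb rule. Of these, 4 lay upstream of the gene, 4 in it and 6 downstream. The only other protein-coding gene with a TSS in this stretch was CHST9, which encodes a sulfotransferase, beside 9 lncRNA genes. The median protein-coding gene had 17 peaks by the same rule, and 36.7% of genes had fewer than the 14 at CDH2. Their signal values had a median of 111 and ran from 42.22 to 865.8, with 9 above the median of the list. The peak of 865.8 was the second strongest of all 21113, and it lay at 29165206 to 29165772, -988359 bp from the canonical CDH2 TSS. With it lay peaks of 111.0 and 89.67, at -977917 and -980899 bp. Between this group and the peak at -27270 bp there was none, so the upstream side held 1 peak near the gene and 3 at the edge of the window. CDH2 was the nearest coding gene to 13 of the 14 peaks, the distant 3 included. Downstream, peaks of 56.66, 188.7 and 53.76 lay at 333172, 337717 and 341850 bp, a peak of 42.22 at 426929 bp and a peak of 387.6 (rank 346) at 1040768 bp inside CHST9. ACATTCC was found in 4 of the 14 (28.6%), any of the TEAD forms in 8 and the AP-1 motif in 2 (14.3%), against 23.0%, 47.0% and 25.4% of all peaks. None held ACATTCC together with AP-1, against 4.49% of all peaks. The sequences of the peaks of 865.8 and 387.6, the strongest on either side of CDH2, are given with the same capitals.
upstream, chr18:29165469-29165525: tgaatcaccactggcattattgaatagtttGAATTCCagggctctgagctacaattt
downstream, chr18:27136327-27136382: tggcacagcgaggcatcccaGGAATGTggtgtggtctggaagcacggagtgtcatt
GAATTCC was centred 13 bp from the upstream summit, and ACATTCC 12 bp from the downstream summit on the other strand.

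The TEAD recognition motif ACATTCC was present within 100 bp of the summit in 11 of the 42 peaks (26.2%, Wilson 95% interval 15.3 to 41.1%), against 23.0% of all peaks. Each of the 8 genes had at least 1 such peak, against 36.5% of all protein-coding genes, but all 8 had a peak by the rule and each was searched over a longer stretch than the median gene. They are also not separate observations, as CDH1 and CDH3 share their only ACATTCC peak (98.25), and that of CDH6 (55.41) lies 458 bp from the DROSHA TSS. This share was thus near that of the list as a whole, and both were above the 2.82% of 42226 windows of equal width taken 2000 bp to either side of all summits. The AP-1 motif, bound by FOS and JUN proteins, was present in 14 peaks (33.3%, interval 21.0 to 48.4%), against 25.4% of all peaks and 3.43% of the flanking windows. ACATTCC and AP-1 occurred together in 2 peaks, at CDH5 and CDH13, against 4.49% of all peaks. Any of the 3 TEAD forms was present in 23 peaks (54.8%, interval 39.9 to 68.8%), against 47.0% of all peaks and 7.28% of flanking windows. The RUNX motif TGTGGTT was found in 1 peak (2.38%), against 9.53% of all peaks, and the E-box CAGATG in 2 (4.76%), against 16.7%. Intervals cover counting error over peaks only, and with 42 peaks each of these shares is loosely fixed.

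Matches were searched up to 100 bp from the summit, and their distances were like those of the whole list for ACATTCC and AP-1. The centres of the 11 ACATTCC matches had a median distance of 20 bp from the summit (18 bp over all peaks), and 6 (54.5%) were within 20 bp, against 55.7%. For the 14 AP-1 matches the median was 33 bp (34 bp over all peaks), and 6 (42.9%) were within 20 bp, against 33.3%. GCATTCC (8 matches) and GAATTCC (7 matches) had medians of 25 and 29 bp, against 17 and 20 bp over all peaks. The peaks with the closest ACATTCC match were at CDH2 (222.7), CDH4 (97.94) and CDH13 (72.90), centred 4 or 5 bp from the summit. The 2 CDH11 peaks in intron 1 (75.63 and 76.39) instead held AP-1 alone, at 9 and 8 bp. These 5 sequences are given to show both arrangements.
CDH2, intron 2, chr18:28065520-28065594: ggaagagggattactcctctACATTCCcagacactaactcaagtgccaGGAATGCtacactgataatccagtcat
CDH4, intron 2, chr20:61353791-61353839: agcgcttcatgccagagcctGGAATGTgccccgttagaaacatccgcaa
CDH13, intron 1, chr16:82634205-82634253: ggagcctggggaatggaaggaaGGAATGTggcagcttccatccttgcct
CDH11, intron 1, 75.63, chr16:65069338-65069390: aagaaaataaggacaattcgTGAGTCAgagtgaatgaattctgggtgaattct
CDH11, intron 1, 76.39, chr16:65070954-65071005: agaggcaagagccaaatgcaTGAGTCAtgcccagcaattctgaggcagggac
The CDH2 sequence also holds GCATTCC on the other strand, 24 bp from the summit.

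By signal value, peaks with ACATTCC had a median of 112 and those without it 96.9, against 82.2 and 64.6 over all peaks. With any of the TEAD forms the median at the cadherin genes was 111 and without one 75.6, against 80.1 and 59.9 over all peaks. Peaks with AP-1 had a median of 78.6 and those without it 98.5, against 71.8 and 66.6 over all peaks. Of the 10 strongest peaks (159.0 and above), 8 held a TEAD form, 4 of them ACATTCC, and 2 held AP-1. Of the 2974 peaks of the list that were at least as strong, 65.7% held a TEAD form, 33.4% ACATTCC and 26.8% AP-1, and the added forms had been chosen with the strongest sequences in view. The exceptions were the upstream CDH2 peak of 244.4 and the CDH13 peak of 197.7, which held neither a TEAD form nor AP-1. In all, 9 of the 42 peaks held none of these letters, against 37.5% of all peaks.

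Other genes of the family and of the junction gave a setting for these values. Of 12 other type I and type II cadherins, 7 had a peak by the same rule, with a median of 1.5 peaks (0 to 8) and 1.19 peaks per Mb. CDH7, CDH9, CDH10, CDH15 and CDH19 had none, and none of the 12 had a summit within 2.5 kb of a TSS. CDH24 had the most (8, up to 556.9), but none of these was in the gene. CDH8, a type II cadherin of the nervous system, had 3 peaks in its body (up to 286.7). Per length, the type II genes CDH24 and CDH22 had 38.6 and 17.4 peaks per Mb, and the type I gene CDH15 was at 0. CDH22 had 5 peaks, CDH20 and CDH26 had 4 each, CDH18 had 2 and CDH12 had 1. The median signal value was 71.4 for these genes and 98.1 for the 8 described ones.

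Of 10 genes for proteins that bind cadherins or link them to actin, 9 had a peak, with a median of 3 peaks and 10.6 peaks per Mb. At 5 of these 10 a summit lay within 2.5 kb of a TSS, against 2 of the 8 cadherins and 16.7% of all coding genes. Any annotated TSS counts here, and their number differs. CTNNA1, CTNNB1, AFDN, PKP4 and VCL have 40, 48, 19, 16 and 5, and CDH1 and CDH11 have 10 and 19. The effect of this number was not tested. From the canonical TSS the nearest summit was at 925 (CTNNA1), 1409 (CTNNB1), 1255 (PKP4), 1818 (VCL) and 103450 bp (AFDN). VCL (vinculin, which binds actin) had 10 peaks, 5 of them in the gene, and CTNNA1 (alpha-catenin, the link to actin) had 8, the nearest 19 bp from a TSS. All peaks of VCL, AFDN, JUP and CTNND1 also lay in the window of another coding gene. CTNNB1 (beta-catenin) had 3 peaks, the nearest at 771 bp, and PKP4, an armadillo protein, had 6, the nearest at 14 bp. AFDN (afadin, an actin-binding junction protein) had 5 peaks, CTNND2 had 3, and CTNNA2 and JUP (plakoglobin) had 2 each. CTNND1, which binds the part of the cadherin tail next to the membrane, had a single peak with a signal value of 618.5, 2928 bp from a TSS. CTNNA3, expressed mainly in heart and testis, had none. The median signal value over the peaks of these genes was 60.4, below that of the cadherins and of the list.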

How the data were processed

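TEAD4 ChIP-seq peaks of LX-2 cells (3 ChIP and 2 input samples) were taken from the list the authors deposited for replicates 1 and 3 together. Per the study's methods, Chromap was used for alignment to hg38, the ENCODE IDR pipeline for peaks, and replicate 2 was dropped as not concordant. The peak caller is not given in the sources used here. The deposited columns used were a score, taken as the scaled IDR (830 to 1000, the lowest equal to an IDR of 0.01), the signal value of the caller, its −log10 q-value and the offset of the summit. These meanings were read from the layout of the 10 columns and their values.

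All 21113 peaks lay inside the hg38 chromosomes. Genes and TSSs came from GENCODE release 44, and sequences were read from hg38. Motif letters were matched in either orientation up to 100 bp from each summit. Shares have Wilson 95% intervals. The genes named were the 8 cadherins, 12 other cadherins, 10 cadherin-binding proteins and genes whose TSS was nearest to a peak. The members, lists and motifs were chosen with earlier results of these data known. No test was run, since the list has no values per sample. Alternatives changed the window, the TSSs, the set of peaks and the motif. The code was checked on simulated data. Python 3.11.15, numpy 2.4.6, pandas 2.3.3, pysam 0.24.0, scipy 1.17.1 and matplotlib 3.10.9 were used.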

Additional observations from a re-analysis of the deposited data

How the results depend on the processing

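Over 6 results, 67 alternatives were run, 66 planned and 1 added once the sequences had been seen. For 64, counts stayed within 1.5 times, shares within their Wilson intervals and the median signal value within its order-statistic interval (76.4 to 112). In 6 of these the q-value threshold removed 674 peaks of the list but none at the genes, and the median above the median signal value was raised by that selection, so these say nothing of stability. Taking the peak interval in place of the summit left every value as it was. Leaving out CDH13, or the peaks below the list median, lowers the number of peaks by definition. The number of peaks ran from 31 without CDH13 or above the median signal value of the list to 63 within 250 kb of a TSS. The latter is at the limit of 1.5 times. The AP-1 share ran from 23.8% with the motif within 50 bp of the summit to 47.6% within 250 bp. Its interval is wide (21.0 to 48.4%), so staying within it is a loose criterion. CDH6 had no peak with 1 TSS per gene, nor when the nearest coding TSS had to be that of a cadherin of the set, which left 7 of 8 genes in each case. The share with the TEAD motif moved to 45.2% with CATTCC in place of ACATTCC and to 54.8% with any of the 3 forms (the added alternative), and the count within 1 Mb of CDH2 moved to 9 above the median signal value, since each changes what is counted. No paired analysis was possible because replicates 1 and 3 were combined by the authors into 1 list, which likewise allows no replicate to be left out. Depth per sample is unknown, and its effect was not tested.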
